A study of Mus musculus with 12 samples.

Results

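Chemokine ligands are small secreted or membrane-anchored proteins that draw leukocytes along a gradient by binding G protein-coupled receptors. The 10 ligand genes described here, Ccl3, Ccl4, Ccl5, Ccl6, Ccl9, Ccl17, Ccl22, Cxcl9, Cxcl10 and Cxcl16, were taken by gene name from a table of 55322 rows, and each name had 1 row. All 10 passed the filter on low values and were tested among 12434 genes, Ccl17 near the limit of detection. The libraries came from conventional dendritic cells (cDCs) of the mouse spleen. Dendritic cells use chemokines to bring T cells, natural killer (NK) cells and monocytes to the antigen they present, and the cDC1 and cDC2 subsets are known to attract different partners. Ccl3, Ccl4 and Ccl5 are inflammatory ligands that draw T cells and monocytes. Of the others, Ccl17 and Ccl22 bind Ccr4, Cxcl9 and Cxcl10 bind Cxcr3, Cxcl16 binds Cxcr6, and the rodent ligands Ccl6 and Ccl9 bind Ccr1.

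RNA of 12 sorted samples was measured, with 3 replicates of each group: L-cDC1 and M-cDC1 for the cDC1 subset, L-cDC2 and M-cDC2 for the cDC2 subset. The letters L and M are used as the sample titles give them, and the title of the study speaks of cDCs of lymphoid origin. All groups carry the labelled genotype Il7r-cre; Rosa26-lsl-tdTomato, a reporter that marks cells with a history of Cre expression from the Il7r gene, which lymphoid progenitors and lymphocytes share. The design text instead calls the mice wild type C57BL/6J, untreated and 7 to 8 weeks old, and the labels do not say which samples were sorted on the reporter. Whether replicates came from separate animals is not labelled, so the p-values speak only of the spread among these libraries, and that spread may be technical.

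Depth ran from 15879864 to 24498235 reads per library, as recovered from the deposited FPKM (fragments per kilobase of transcript, scaled to library size) values. Of the identity genes, 12 of 12 for cDC1 passed as higher in that subset and 12 of 12 for cDC2 as lower, within L and within M, so the subset labels fit their markers. Summed B cell markers stood at 602 to 958 FPKM in L-cDC1, against 309 to 354 FPKM in M-cDC1, and at 923 to 3392 FPKM in L-cDC2, against 356 to 384 FPKM in M-cDC2. L-cDC2 replicate 2 stood apart with the highest of these sums. Ighm made up most of the M sums, with means of 313 FPKM in M-cDC1 and 322 FPKM in M-cDC2. In the L groups Ighm had 390 FPKM in L-cDC1 and 685 FPKM in L-cDC2. Igkc had means of 245 FPKM in L-cDC1 and 2.38 FPKM in M-cDC1, and 990 FPKM in L-cDC2 and 2.14 FPKM in M-cDC2. Of 11 tested B cell markers, 7 passed as higher in L-cDC1 and 9 in L-cDC2, against M, and 0 as lower. Summed T and NK cell markers stood at 14.8 to 27.7 FPKM in L-cDC1, against 2.69 to 4.05 FPKM in M-cDC1, and at 182 to 235 FPKM in L-cDC2, against 82.0 to 108 FPKM in M-cDC2. In cDC2 much of that sum was Klrd1, at 115 FPKM in L-cDC2 and 96.5 FPKM in M-cDC2, and without it the group means add up to 91.5 FPKM in L-cDC2 and 2.39 FPKM in M-cDC2. In bulk RNA, fewer cells that express a gene and less RNA per cell cannot be told apart.

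The summed RNA of these ligands was lower in cDC1 than in cDC2, and a different ligand led in each. The FPKM values of the 10 genes, which are per length and can be compared between genes, summed to 265 ± 18.5 in L-cDC1, 237 ± 15.1 in M-cDC1, and to 597 ± 78.2 in L-cDC2 and 682 ± 88.8 in M-cDC2 (SD, n = 3 each). Ccl5 made up 13.7% ± 2.21 of that sum in L-cDC1 and 11.7% ± 1.78 in M-cDC1, and led in cDC2 with 65.9% ± 5.91 in L-cDC2 and 63.9% ± 11.2 in M-cDC2. Cxcl16 led in cDC1, with 31.4% ± 3.30 in L-cDC1 and 29.9% ± 0.593 in M-cDC1, and made up 1.96% ± 0.684 in L-cDC2 and 3.28% ± 0.674 in M-cDC2. Cxcl9 came next in cDC1, at 22.3% ± 1.69 in L-cDC1 and 24.5% ± 2.49 in M-cDC1, and held at most 0.511% in any cDC2 library. In the plot of shares, the CXC ligands fill most of every cDC1 bar, and Ccl3, Ccl4 and Ccl5 most of every cDC2 bar.

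**Figure D1:**
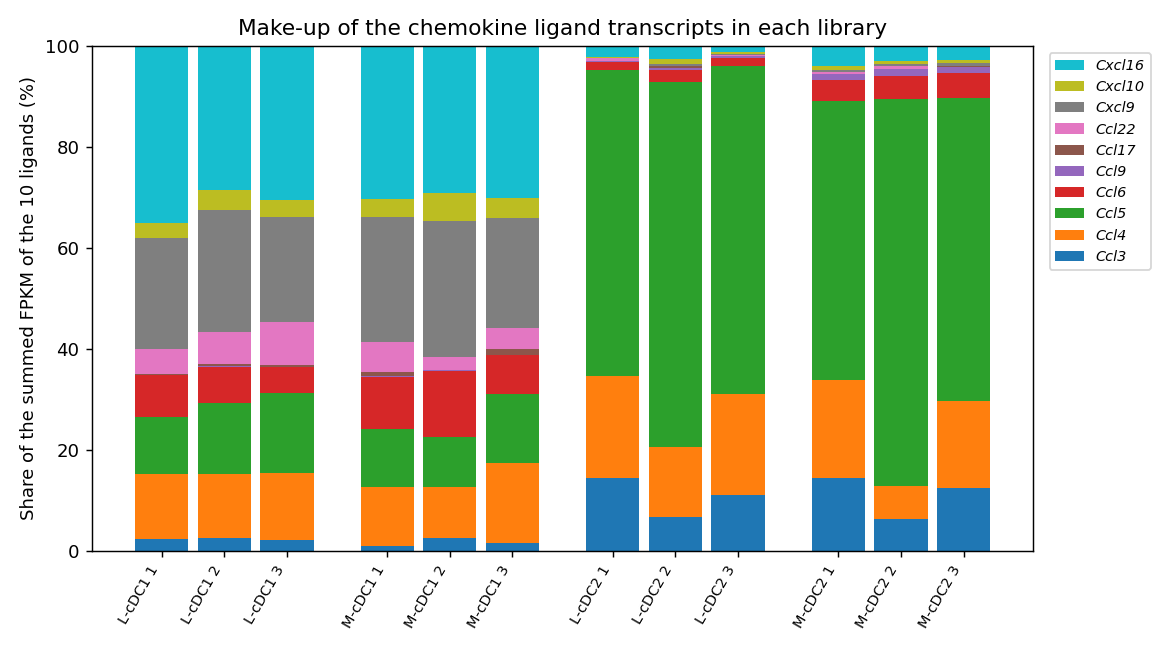
Share of each of the 10 ligands in their summed FPKM (%), with 1 stacked bar for each of the 12 libraries. Cxcl16 (cyan) and Cxcl9 (grey) lead in the cDC1 bars, and Ccl5 (green) takes between 55.2% and 76.6% of every cDC2 bar.

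**Figure D2:**
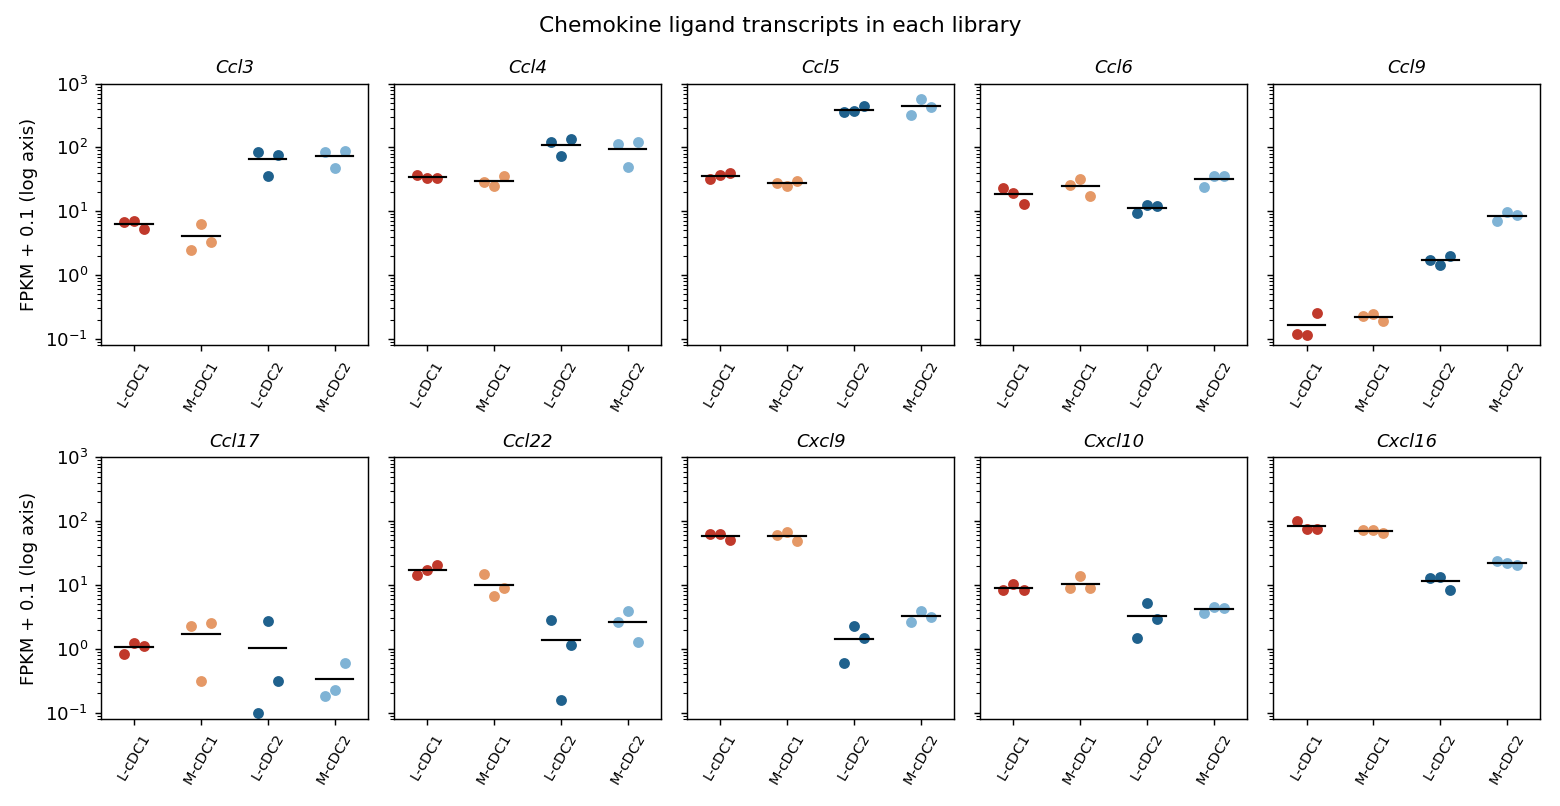
FPKM + 0.1 of each ligand on a log axis, 1 point for each library, with the group mean as a line (3 libraries in each group). The cDC1 and cDC2 points of Ccl3, Ccl4, Ccl5, Ccl9, Ccl22, Cxcl9, Cxcl10 and Cxcl16 do not overlap, and the L-cDC2 points of Ccl6, Ccl9, Cxcl9 and Cxcl16 lie below those of M-cDC2.

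Setting cDC1 against cDC2, within L and within M, asked how the subsets differ in these ligands. The same 8 of 10 ligands passed the test in both: Cxcl9, Cxcl10, Cxcl16 and Ccl22 were higher in cDC1, and Ccl3, Ccl4, Ccl5 and Ccl9 were lower. Over all genes 39.5% were called between L-cDC1 and L-cDC2 (12.9% higher and 26.6% lower) and 38.1% between M-cDC1 and M-cDC2 (12.7% higher and 25.4% lower). The median log2 difference of the 10 ligands was 0.442 in L and 0.302 in M, against -0.193 and -0.177 over all genes tested. With 4 ligands higher and 4 lower, that median lies between the 2 uncalled ones, Ccl6 and Ccl17, and shows no common direction. Libraries did not overlap for 5 ligands higher and 4 lower in L-cDC1 than in L-cDC2, against 48.6% of all genes (16% higher and 32.7% lower), and for 4 higher and 4 lower in M-cDC1 than in M-cDC2, against 51.1% (16.9% higher and 34.2% lower). Differences are of log2(FPKM + 1), tested with limma over all 12 libraries with p-values adjusted over all genes, and genes with an adjusted p under 0.05 count as called. Changes of weakly expressed genes are understated on that scale. The median over all genes depended on the scaling: after median-of-ratios scaling it was -0.0354 in L and -0.026 in M, and after quantile normalization 0.0249 in L and 0.0442 in M. The 8 calls and their directions held under both scalings.

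**Figure D3:**
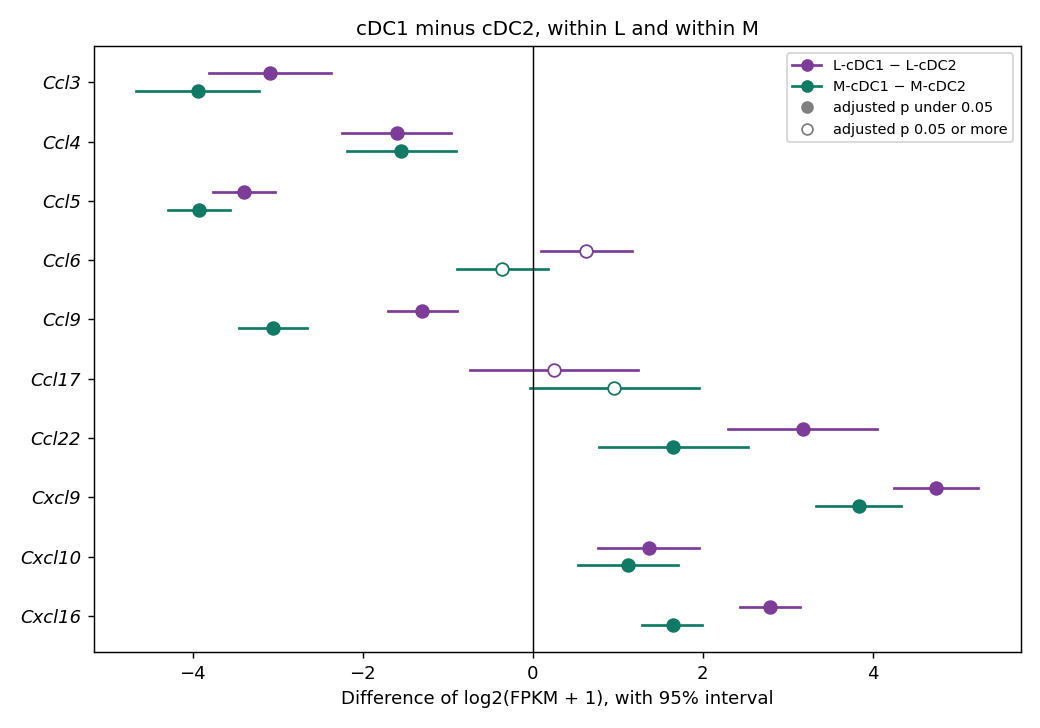
Difference of log2(FPKM + 1), cDC1 minus cDC2, for each ligand within L (purple) and within M (green), with its 95% interval. Filled points have an adjusted p under 0.05 and lie right of 0 for Ccl22, Cxcl9, Cxcl10 and Cxcl16 and left of 0 for Ccl3, Ccl4, Ccl5 and Ccl9.

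Ccl5, an inflammatory ligand that draws T cells and monocytes, was the most abundant ligand of cDC2 (chromosome 11, 83416604 to 83421344 in the deposited table, whose build is not given in the sources used here). It had 32.3, 37.3 and 39.0 FPKM in L-cDC1 libraries, against 358, 377 and 439.7 FPKM in L-cDC2 libraries. In M-cDC1 libraries it had 27.6, 24.9 and 29.8 FPKM, against 322, 576 and 427 FPKM in M-cDC2 libraries. Every cDC1 library was below every cDC2 library. The mean was 10.8-fold lower in L-cDC1 than in L-cDC2, and the log2 difference was -3.40 (SE 0.17, limma adjusted p = 1.91e-09). The mean was 16.1-fold lower in M-cDC1 than in M-cDC2, and the difference was -3.92 on the log2 scale (SE 0.17, limma adjusted p = 4.41e-10). T and NK cells also make Ccl5, and 11 of 12 tested markers of these cells were lower in L-cDC1 than in L-cDC2, among them Gzma, Nkg7 and Trac; their part in the L result was not tested. In M-cDC2, where Ccl5 had 322 to 576 FPKM, 7 of the 17 listed markers were at 0 in all 3 libraries, Gzma, Trbc1 and Trbc2 among them. Others were detected there, with means of 0.552 FPKM for Cd3d, 0.169 FPKM for Nkg7, 1.27 FPKM for Klre1 and 96.5 FPKM for Klrd1. Of 12 tested T and NK cell markers, 2, Klre1 and Klrd1, were lower in M-cDC1 than in M-cDC2 and 0 were higher. The part of these cells in the M result was not tested either.

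Ccl3 and Ccl4, inflammatory ligands whose genes lie next to each other on chromosome 11, were also lower in cDC1, by unequal amounts. Ccl3 (83538670 to 83540181) had 6.63, 6.99 and 5.25 FPKM in L-cDC1 libraries, against 84.9, 35.1 and 75.0 FPKM in L-cDC2 libraries, and 2.38, 6.21 and 3.21 FPKM in M-cDC1 libraries, against 84.4, 48.2 and 88.1 FPKM in M-cDC2 libraries. Its log2 difference was -3.09 in L (SE 0.335, limma adjusted p = 6.05e-06) and -3.94 in M (adjusted p = 5.35e-07). Ccl4 (83553410 to 83555509, on the opposite strand) had 36.3, 33.5 and 32.9 FPKM in L-cDC1 libraries, against 120.1, 72.5 and 135 FPKM in L-cDC2 libraries. In M-cDC1 libraries Ccl4 had 28.4, 25.2 and 35.3 FPKM, against 113, 48.5 and 123 FPKM in M-cDC2 libraries. Both genes were lowest in replicate 2 of each cDC2 group, yet these libraries stayed above all cDC1 libraries. The Ccl4 means were 3.19-fold lower in L-cDC1 than in L-cDC2 and 3.20-fold lower in M-cDC1 than in M-cDC2, with log2 differences of -1.60 (SE 0.298, limma adjusted p = 0.000743) and -1.55 (adjusted p = 0.000999). The Ccl3 means were 10.3-fold lower in L-cDC1 than in L-cDC2 and 18.7-fold lower in M-cDC1 than in M-cDC2. In cDC1 the level of Ccl4 exceeded that of Ccl3 in every library. In cDC2 the ratios were narrower. In M-cDC2 replicate 2 the levels were nearly equal, at 48.47 FPKM for Ccl4 (508 reads) and 48.18 FPKM for Ccl3 (586 reads).

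Cxcl9 and Cxcl10, interferon-induced ligands that bring Cxcr3-bearing T and NK cells, were higher in cDC1, Cxcl9 by far the more. Cxcl9 (chromosome 5, 92469206 to 92475938) had 62.4, 64.0 and 51.4 FPKM in L-cDC1 libraries, against 0.501, 2.16 and 1.35 FPKM in L-cDC2 libraries. In M-cDC1 libraries it had 59.7, 66.8 and 48.2 FPKM, against 2.53, 3.84 and 3.10 FPKM in M-cDC2 libraries. No cDC2 library came near the cDC1 range. The means were 44.3-fold higher in L-cDC1 than in L-cDC2 and 18.4-fold higher in M-cDC1 than in M-cDC2, with log2 differences of 4.75 (SE 0.231, limma adjusted p = 1.47e-09) and 3.83 (adjusted p = 1.49e-08). Cxcl10 lies 18.6 kb away (92494497 to 92496748). It had 8.34, 10.1 and 8.23 FPKM in L-cDC1 libraries, against 1.40, 5.13 and 2.81 FPKM in L-cDC2 libraries. In M-cDC1 libraries Cxcl10 had 8.74, 13.5 and 8.72 FPKM, against 3.61, 4.47 and 4.31 FPKM in M-cDC2 libraries. These groups did not overlap either, but the means were only 2.85-fold higher in L-cDC1 than in L-cDC2 (1.36, SE 0.275, limma adjusted p = 0.00137) and 2.50-fold higher in M-cDC1 than in M-cDC2 (1.12, adjusted p = 0.00559). Reads of Cxcl10 cannot be told apart from those of the overlapping gene Art3 on the other strand, which was listed at 0.922 FPKM at most.

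The promoter windows of this pair are shown because the genes are neighbours that moved the same way by unequal amounts. Windows run from 250 bases before to 50 after the RefSeq start in build GRCm38.p6, on the minus strand, at chr5:92328030-92328329 for Cxcl9 and chr5:92348840-92349139 for Cxcl10, and 7 of the 10 ligands had one. Capitals mark matches to an interferon-stimulated response element, a 9-letter kappaB site (GGGANTTCC) or the longer kappaB consensus, each searched on both strands.
Cxcl9: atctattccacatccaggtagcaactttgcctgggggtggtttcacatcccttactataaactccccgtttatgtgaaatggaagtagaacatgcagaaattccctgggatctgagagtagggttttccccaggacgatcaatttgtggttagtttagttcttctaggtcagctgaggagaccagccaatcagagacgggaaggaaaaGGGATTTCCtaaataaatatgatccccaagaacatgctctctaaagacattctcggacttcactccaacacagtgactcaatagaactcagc
Cxcl10: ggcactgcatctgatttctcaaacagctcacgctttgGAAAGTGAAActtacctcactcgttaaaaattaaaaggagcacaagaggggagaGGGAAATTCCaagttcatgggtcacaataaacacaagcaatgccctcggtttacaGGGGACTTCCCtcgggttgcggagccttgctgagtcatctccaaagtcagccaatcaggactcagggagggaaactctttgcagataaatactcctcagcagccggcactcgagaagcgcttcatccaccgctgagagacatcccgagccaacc
Cxcl9 holds 1 match, the 9-letter kappaB site GGGATTTCC from base -42 to -34 relative to the start. Cxcl10 holds the response element GAAAGTGAAA from -213 to -204 and 3 matches to the kappaB consensus, of which those starting at -104 and -103 overlap each other and the 9-letter site GGGACTTCC. Of 32851 RefSeq promoter windows of the same length, 3.44% hold the response element, 1.68% the 9-letter site and 8.46% the consensus. The windows share a run of 11 bases, cagccaatcag, which starts at -68 in Cxcl9 and -57 in Cxcl10. A match is a description of the letters and not a bound site.

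Cxcl16, a ligand made as a membrane protein that also serves as a scavenger receptor and is released by the protease Adam10, was the most abundant ligand of cDC1 (chromosome 11, 70344809 to 70350810). It had 99.4, 75.8 and 75.3 FPKM in L-cDC1 libraries, against 12.6, 13.3 and 8.21 FPKM in L-cDC2 libraries, and 73.7, 72.7 and 66.2 FPKM in M-cDC1 libraries, against 23.6, 22.3 and 20.2 FPKM in M-cDC2 libraries. The groups stood in the order L-cDC1, M-cDC1, M-cDC2 and L-cDC2, with no overlap between neighbours. The means were 7.35-fold higher in L-cDC1 than in L-cDC2 (2.79, SE 0.162, limma adjusted p = 9.45e-09) and 3.22-fold higher in M-cDC1 than in M-cDC2 (1.64, adjusted p = 2.26e-06). Zmynd15 overlaps it on the other strand at 4.11 FPKM at most, and the reads of both cannot be told apart. Of 7 tested proteoglycan and sheddase partners, 1 was higher and 4 were lower in L-cDC1 than in L-cDC2, and 1 was higher and 5 were lower in M-cDC1 than in M-cDC2. Adam10 stood at 9.78 ± 1.22 FPKM in M-cDC1 and 16.6 ± 3.39 FPKM in M-cDC2 (SD, n = 3 each; -0.70, SE 0.178, limma adjusted p = 0.00696), opposite in direction to Cxcl16. Srgn, the core protein of an intracellular proteoglycan that stores chemokines in granules, was the 1 member higher in cDC1 (0.62 in L, limma adjusted p = 0.0138, and 0.63 in M, adjusted p = 0.0131). The proteases Mmp12 (-5.20 in L and -4.45 in M) and Mmp9 (-5.56 and -4.79), which can trim chemokines, were lower in cDC1.

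The Ccr4 ligands Ccl22 and Ccl17, which bring regulatory T cells and other helper T cells to dendritic cells, lie 58.8 kb apart on chromosome 8 and differed in level. Ccl22 (95472218 to 95478327) had 14.1, 17.2 and 20.8 FPKM in L-cDC1 libraries, against 2.71, 0.0592 and 1.07 FPKM in L-cDC2 libraries. In M-cDC1 libraries it had 14.6, 6.55 and 9.01 FPKM, against 2.56, 3.82 and 1.2 FPKM in M-cDC2 libraries. L-cDC2 replicate 2 held 3 reads of Ccl22, while all cDC1 libraries held at least 272. The log2 difference was 3.18 in L (SE 0.406, limma adjusted p = 2.84e-05) and 1.65 in M (SE 0.406, adjusted p = 0.00558). In M the call ended with a pseudocount of 0.1 (limma adjusted p = 0.0575, range over the alternatives 0.00146 to 0.0575). Ccl17 (95537081 to 95538664) ran from 0 to 2.59 FPKM, which is 0 to 29 reads a library. Its libraries overlapped in each comparison, and it did not pass in L (0.25, SE 0.459, limma adjusted p = 0.694) or in M (0.96, adjusted p = 0.118). In M it was called after quantile normalization (limma adjusted p = 0.0406) and without M-cDC1 replicate 2, which held 2 reads (adjusted p = 0.0246). In these libraries Ccr7, Fscn1 and the other genes of mature migratory dendritic cells did not move as 1 block. Of 15 tested, 4 were higher and 6 lower in L-cDC1 than in L-cDC2, and 3 were higher and 9 lower in M-cDC1 than in M-cDC2, with Cd274 (-3.77 in L and -3.82 in M) and Pdcd1lg2 (-3.98 and -4.61) lower and Laptm4b (3.61 and 4.55) and Serpinb6b (2.19 and 3.65) higher.

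Ccl9 and Ccl6, related rodent ligands of Ccr1 whose genes lie 9.24 kb apart, followed different patterns. Ccl9 (chromosome 11, 83463745 to 83469462) was close to absent from cDC1, with 1, 1 and 9 reads in L-cDC1 libraries (0.0174, 0.0158 and 0.154 FPKM) and 9, 8 and 6 reads in M-cDC1 libraries (0.132, 0.147 and 0.0897 FPKM). In 2 of the L-cDC1 libraries it lay under the floor of 3 reads. It had 1.63, 1.34 and 1.88 FPKM in L-cDC2 libraries and 6.98, 9.60 and 8.52 FPKM in M-cDC2 libraries. The mean was 68.1-fold lower in M-cDC1 than in M-cDC2, and no fold is given for L, where 1 library holds 9 of the 11 L-cDC1 reads. The log2 difference was -1.298 in L (SE 0.187, limma adjusted p = 8.74e-05) and -3.05 in M (adjusted p = 1.78e-08). The size depended on the scale: over the alternatives it ran from -5.11, by limma-voom on the recovered reads, to -0.386, with a pseudocount of 5, in L, and from -6.00 to -1.38 in M. Ccl6 (83478708 to 83483913) was present in every group. It had 23.4, 18.9 and 12.7 FPKM in L-cDC1 libraries, against 9.21, 12.6 and 11.9 FPKM in L-cDC2 libraries, and 25.2, 32.5 and 17.1 FPKM in M-cDC1 libraries, against 24.0, 35.0 and 35.9 FPKM in M-cDC2 libraries. Ccl6 did not pass in L (0.63, SE 0.248, limma adjusted p = 0.0585), where its libraries did not overlap by a narrow gap, or in M (-0.36, adjusted p = 0.287), where they did. In L it was called under 4 alternatives, including both scalings and without L-cDC1 replicate 3 (limma adjusted p = 0.0168, range over the alternatives 0.0163 to 0.209).

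The windows of Ccl6 and Ccl9 are shown because the genes are neighbours whose levels in cDC1 differ by far. They lie on the minus strand at chr11:83593038-83593337 for Ccl6 and chr11:83578587-83578886 for Ccl9 (RefSeq, GRCm38.p6), and capitals mark a match to an ETS core (AGGAAGT, here on the reverse strand) in Ccl6 and to the kappaB consensus in Ccl9.
Ccl6: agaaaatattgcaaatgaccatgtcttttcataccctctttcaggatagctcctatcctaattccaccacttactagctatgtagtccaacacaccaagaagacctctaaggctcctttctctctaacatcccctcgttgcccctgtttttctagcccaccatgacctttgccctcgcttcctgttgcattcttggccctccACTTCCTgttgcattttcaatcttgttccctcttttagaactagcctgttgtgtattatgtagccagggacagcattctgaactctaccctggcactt
Ccl9: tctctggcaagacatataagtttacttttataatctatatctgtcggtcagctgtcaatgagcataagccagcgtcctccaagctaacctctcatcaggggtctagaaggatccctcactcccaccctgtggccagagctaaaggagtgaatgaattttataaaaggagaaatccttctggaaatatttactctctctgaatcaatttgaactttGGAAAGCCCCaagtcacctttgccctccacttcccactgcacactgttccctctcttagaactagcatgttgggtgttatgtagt
After global alignment with gaps these were the most alike of the 21 pairs of ligand windows, at 76.5% identity with a shared run of 13 bases, gccctccacttcc, against 59.3% to 69.6% and runs of at most 11 bases in the other 20 pairs. The ETS core, from -48 to -42 in Ccl6, was in 9.35% of all windows. The match in Ccl9, GGAAAGCCCC, runs from -35 to -26 and is to the reverse strand. Ccl17 held a match to an interferon-activated site (TTCNNNGAA, in 8.30% of windows), TTCTTTGAA from -99 to -91, and the windows of Ccl3 and Ccl22 held none of the 5 motifs.

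The comparison of L-cDC2 with M-cDC2 asked how cDC2 of the L and M groups differ. Ccl9, Ccl6 and Cxcl16 were lower in L-cDC2 and no ligand passed as higher, so 3 of 10 were called, against 1.83% of all genes (1.04% higher and 0.788% lower). The median log2 difference of the 10 ligands was -0.579, against 0.0271 over all genes. Ccl5, Ccl3 and Ccl4, the ligands cDC2 held most of, overlapped between L-cDC2 and M-cDC2. Ccl5 differed by -0.14 (95% interval -0.504 to 0.227, limma adjusted p = 0.857), Ccl3 by -0.22 (-0.945 to 0.5, adjusted p = 0.894) and Ccl4 by 0.27 (-0.376 to 0.908, adjusted p = 0.838).

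Ccl9 was 5.18-fold lower in L-cDC2, with 1.62 ± 0.271 FPKM, against 8.37 ± 1.31 FPKM in M-cDC2 (SD, n = 3 each). The highest L-cDC2 library, at 1.88 FPKM, lay below the lowest M-cDC2 library, at 6.98 FPKM, and the log2 difference was -1.84 (SE 0.187, limma adjusted p = 8.88e-05). Ccl6 was 2.82-fold lower, at 11.2 ± 1.79 FPKM in L-cDC2 and 31.7 ± 6.62 FPKM in M-cDC2. Its log2 difference was -1.41 (SE 0.248, limma adjusted p = 0.00774). Without a filter on low values that call ended (limma adjusted p = 0.0552, range over the alternatives 0.00403 to 0.0552). Cxcl16 was 1.94-fold lower, at 11.4 ± 2.75 FPKM in L-cDC2 and 22.0 ± 1.75 FPKM in M-cDC2, which is -0.92 on the log2 scale (SE 0.162, limma adjusted p = 0.00768). Its call ended with only the groups compared in the fit (adjusted p = 0.0739, range over the alternatives 0.00274 to 0.0739). For all 3 genes the groups did not overlap.

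Cxcl9 was at 1.34 ± 0.830 FPKM in L-cDC2 and 3.16 ± 0.657 FPKM in M-cDC2, 2.36-fold lower and without overlap, but it did not pass (-0.88, SE 0.231, limma adjusted p = 0.0867). It passed after quantile normalization (limma adjusted p = 0.0475) and without L-cDC2 replicate 2 (-1.13, adjusted p = 0.0188), the library with the highest B cell marker sum. With Ccl6, Ccl9 and Cxcl16 it made 4 of 10 ligands whose L-cDC2 and M-cDC2 libraries did not overlap, all lower in L-cDC2, against 16.9% of all genes (9.96% higher and 6.92% lower). Cxcl10 differed by -0.42 (limma adjusted p = 0.682), Ccl22 by -0.74 (adjusted p = 0.584) and Ccl17 by 0.42 (adjusted p = 0.833), all with overlap.

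**Figure D4:**
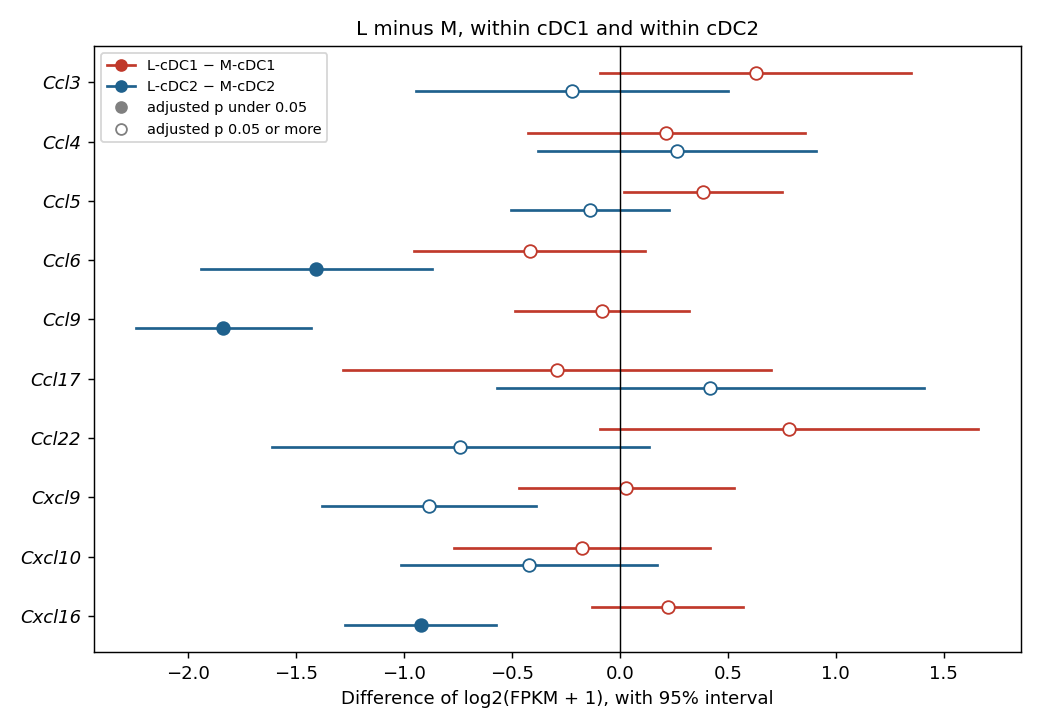
Difference of log2(FPKM + 1), L minus M, for each ligand within cDC1 (red) and within cDC2 (blue), with its 95% interval. Filled points, with an adjusted p under 0.05, are Ccl6, Ccl9 and Cxcl16 in cDC2, all left of 0, and no cDC1 point is filled.

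Of 10 tested monocyte and macrophage genes, from a list of 14, Lyz2, Ccr2 and Csf1r were lower in L-cDC2, as these ligands were, 0 were higher and 7 did not pass. Lyz2, the lysozyme of myeloid cells, had 223, 351 and 182 FPKM in L-cDC2 libraries, against 969, 1021 and 804 FPKM in M-cDC2 libraries (-1.93, SE 0.179, limma adjusted p = 5e-05). Csf1r, the receptor of macrophage growth factor, had 20.9, 24.0 and 27.4 FPKM in L-cDC2 libraries, against 64.1, 67.8 and 64.0 FPKM in M-cDC2 libraries (-1.41, adjusted p = 0.000106). Ccr2, which takes monocytes out of the bone marrow, had 1.58, 2.17 and 1.79 FPKM in L-cDC2 libraries, against 8.00, 7.41 and 6.66 FPKM in M-cDC2 libraries (-1.55, adjusted p = 0.000148). The summed list ran from 324 to 487 FPKM in L-cDC2, against 1026 to 1236 FPKM in M-cDC2. Lyz2 carries most of that sum, and without it the group means add up to 133 FPKM in L-cDC2 and 213 FPKM in M-cDC2. Ly6c2, a marker of classical monocytes, had 1.92 ± 0.768 FPKM in L-cDC2 and 0.946 ± 0.504 FPKM in M-cDC2 (0.58, limma adjusted p = 0.414), opposite in sign to Lyz2. Of the list's defining markers, Ms4a3, of monocyte progenitors, was listed at 0 in all cDC2 libraries, and Fcgr1 stood at 0.136 ± 0.235 FPKM in L-cDC2 and 0.244 ± 0.217 FPKM in M-cDC2. Adgre1 stood at 94.9 ± 6.18 FPKM in L-cDC2 and 119 ± 15.2 FPKM in M-cDC2 (-0.32, limma adjusted p = 0.65). Their part in the result on Ccl9, Ccl6 and Cxcl16 was not tested. Of 12 cDC2 identity genes, 1 was called lower in L-cDC2, 0 were higher and 11 did not pass. That gene was Cd209a, at 171 ± 14.3 FPKM in L-cDC2 and 351 ± 35.1 FPKM in M-cDC2. Of 12 cDC1 identity genes, Clec9a and Naaa were lower in L-cDC2, 0 were higher and 10 did not pass. Clec9a, a receptor for dead cells, had 0.728 ± 0.172 FPKM in L-cDC2 and 2.11 ± 0.665 FPKM in M-cDC2 (-0.83, limma adjusted p = 0.00732). Naaa, a lipid amidase, had 13.2 ± 1.59 FPKM in L-cDC2 and 22.9 ± 3.24 FPKM in M-cDC2 (-0.75, adjusted p = 0.00277). Cxcl16 and Cxcl9 are, like these, at higher levels in cDC1, and the part of cDC1 genes in their L-cDC2 values was not tested. The B cell and the T and NK cell sums moved the other way and were higher in L-cDC2, and their part was not tested either.

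**Figure D5:**
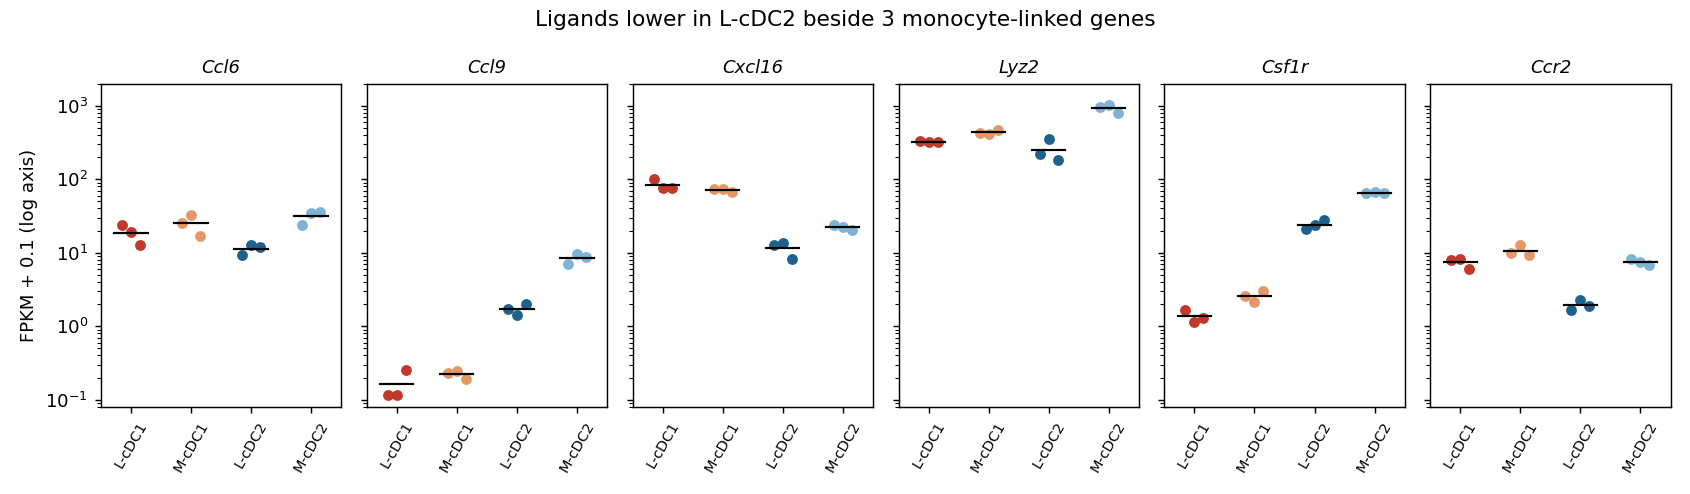
FPKM + 0.1 on a log axis of Ccl6, Ccl9 and Cxcl16 beside Lyz2, Csf1r and Ccr2, 1 point for each library with the group mean as a line. The L-cDC2 points of all 6 genes lie below the M-cDC2 points, with Lyz2 at 182 to 351 FPKM in L-cDC2 and 804 to 1021 FPKM in M-cDC2.

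The same question was asked of cDC1, with L-cDC1 set against M-cDC1. No ligand passed by limma: 0 of 10 were called, against 0.394% of all genes (0.354% higher and 0.0402% lower), and 1 had an unadjusted p under 0.05. Limma-voom on the recovered reads also called 0. An unadjusted p under 0.05 was held by 10.3% of all genes in this comparison, so 1 of 10 ligands is near that share. The median log2 difference of the 10 was 0.123, against 0.0152 over all genes. The ligand with an unadjusted p under 0.05 was Ccl5, at 36.2 ± 3.44 FPKM in L-cDC1 and 27.5 ± 2.45 FPKM in M-cDC1 (SD, n = 3 each). Its lowest L-cDC1 library, at 32.3 FPKM, lay above its highest M-cDC1 library, at 29.8 FPKM (0.39, SE 0.17, limma adjusted p = 0.462). Of 12 tested T and NK cell markers, Nkg7, Trac and Trbc2 were higher in L-cDC1 in the same libraries, 0 were lower and 9 did not pass. Nkg7 had 7.93, 6.23 and 3.94 FPKM in L-cDC1 libraries, against 0.146, 0 and 0 FPKM in M-cDC1 libraries. Klrd1, which did not pass, had means of 1.78 FPKM in L-cDC1 and 2.43 FPKM in M-cDC1. The part of T and NK cells in the Ccl5 values was not tested. Cxcl16, at 83.5 ± 13.8 FPKM in L-cDC1 and 70.9 ± 4.05 FPKM in M-cDC1, also did not overlap (0.22, SE 0.162, limma adjusted p = 0.718). Thus 2 of 10 ligands did not overlap, both higher in L-cDC1, against 13.9% of all genes (8.28% higher and 5.63% lower).

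The other ligands overlapped between L-cDC1 and M-cDC1. Cxcl9, at 59.3 ± 6.89 FPKM in L-cDC1 and 58.2 ± 9.40 FPKM in M-cDC1, differed by 0.031 (95% interval -0.467 to 0.529), with a sign that turned under median-of-ratios scaling. Cxcl10 differed by -0.17 (-0.767 to 0.418). Ccl22 had 17.4 ± 3.35 FPKM in L-cDC1 and 10.04 ± 4.11 FPKM in M-cDC1 (0.78, 95% interval -0.0911 to 1.66). The difference was 0.63 for Ccl3 (-0.0926 to 1.35), 0.22 for Ccl4 (-0.426 to 0.857), -0.42 for Ccl6 (-0.952 to 0.118), -0.082 for Ccl9 (-0.486 to 0.322) and -0.29 for Ccl17 (-1.28 to 0.702).

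The interaction asked whether the L minus M difference itself was unequal in cDC1 and cDC2. Ccl9 passed and the other 9 ligands did not, against 0.298% of all genes called (0.193% positive and 0.105% negative). Its L minus M difference was -0.082 in cDC1 and -1.84 in cDC2, an interaction of 1.75 (SE 0.265, limma adjusted p = 0.0137). The level in cDC1 limits this value: Ccl9 had 11 reads in L-cDC1, 9 of them in replicate 3, and 23 in M-cDC1, so no fold between L and M is given there to set beside the 5.18-fold in cDC2. The call ended with a pseudocount of 0.1 (adjusted p = 0.449), with limma-voom on the recovered reads (0.887, adjusted p = 0.871) and without M-cDC2 replicate 2 (adjusted p = 0.0577). With so few reads in cDC1, the test cannot decide whether Ccl9 differed unequally between L and M in the subsets. Cxcl16 had an interaction of 1.14 (SE 0.229, limma adjusted p = 0.0664), with 0.22 in cDC1 and -0.92 in cDC2. It passed with a filter of 5 FPKM (limma adjusted p = 0.0363) and after quantile normalization (adjusted p = 0.0338). Cxcl9 (0.91, adjusted p = 0.415), Ccl6 (0.99, adjusted p = 0.415) and Ccl22 (1.52, adjusted p = 0.449) did not pass by limma, so their L minus M differences were not shown to be unequal between subsets. Among the monocyte-linked genes, Lyz2 passed the interaction (1.49, limma adjusted p = 0.025).

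Of the receptors reported here, Cxcr3 stood out by its level. Cxcr3, Cxcr6 and Ackr1 reached the filter. Cxcr3, the receptor of Cxcl9 and Cxcl10, had 59.1, 67.6 and 64.8 FPKM in L-cDC1 libraries, against 2.04, 7.40 and 6.46 FPKM in L-cDC2 libraries, and 62.5, 58.9 and 75.6 FPKM in M-cDC1 libraries, against 2.0, 1.27 and 3.01 FPKM in M-cDC2 libraries. It was higher in cDC1 by 3.49 in L (SE 0.308, limma adjusted p = 7.54e-07) and 4.46 in M (adjusted p = 5.97e-08), the same direction as its ligands. Ackr1, a decoy receptor that binds many chemokines without signalling, had 0.0114 ± 0.0198 FPKM in L-cDC1 and 4.03 ± 1.48 FPKM in L-cDC2 (-2.27, limma adjusted p = 3.29e-06), and 0.0265 ± 0.0460 FPKM in M-cDC1 and 4.08 ± 0.733 FPKM in M-cDC2 (-2.297, adjusted p = 2.93e-06). Cxcr6, the receptor of Cxcl16, had group means of 0.330 to 1.26 FPKM and was not called. Ccr1 stood at 0.105 FPKM in L-cDC1, 0.740 FPKM in L-cDC2 and 1.1 FPKM in M-cDC2 and was listed at 0 in M-cDC1. Ccr3 and Ackr2 stayed under 0.6 FPKM in every group mean, and Ccr4 was listed at 0 outside M-cDC1, where it had 0.0245 FPKM. Between L and M, Cxcr3 was not called in cDC2 (0.93, limma adjusted p = 0.225).

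Other chemokine ligands were close to the limit of detection. Of 28 listed, Xcl1 and Ccl2 reached the filter. Limma and limma-voom called 0 of the 2 in every comparison, while both had an unadjusted p under 0.05 between L and M in cDC1 and in cDC2. Xcl1, the ligand of the cDC1 receptor Xcr1 and a product of NK and T cells, had 2.53, 8.21 and 2.3 FPKM in L-cDC1 libraries, against 0, 0 and 0.0871 FPKM in M-cDC1 libraries (limma adjusted p = 0.144). In L-cDC2 libraries it had 0.562, 9.04 and 0.737 FPKM, and it was listed at 0 in all M-cDC2 libraries (adjusted p = 0.285). The groups did not overlap, and the T and NK cell sums given above were higher in the same L libraries, and their part in the Xcl1 values was not tested. Ccl2, which draws monocytes by Ccr2, had 0.418, 0.848 and 0.918 FPKM in L-cDC1 libraries, against 1.92, 4.33 and 2.24 FPKM in M-cDC1 libraries (-1.11, limma adjusted p = 0.222).

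Genes of the pathways that induce these ligands differed between the subsets, those of the NF-kB and type I interferon lists mostly lower in cDC1. Over all genes 12.9% were higher and 26.6% lower in L-cDC1 than in L-cDC2, and 12.7% higher and 25.4% lower in M-cDC1 than in M-cDC2. Of 21 tested interferon-gamma response genes, 7 were higher and 5 lower in L-cDC1 than in L-cDC2, and 9 were higher and 7 lower in M-cDC1 than in M-cDC2. Psmb9 and Psmb8, of the immunoproteasome, and Tap1, the peptide transporter, were higher in cDC1 (Psmb9 by 1.15 in both, Tap1 by 1.34 in L and 1.18 in M), and the GTPase Gbp4 was lower (-1.52 and -1.53). Ifngr1, a chain of the interferon-gamma receptor, was among the genes called higher in cDC1, at 505 ± 45.4 FPKM in L-cDC1 and 340.0 ± 6.97 FPKM in L-cDC2, and was chosen after its values were seen. Of 22 type I interferon response genes, 2 were higher and 16 lower in L-cDC1 than in L-cDC2, and 1 was higher and 18 lower in M-cDC1 than in M-cDC2. Cxcl10, which both interferon types induce, was higher in cDC1, against the direction of most of that list. Of 18 NF-kB response genes, 2 were higher and 12 lower in L-cDC1 than in L-cDC2, and 0 were higher and 15 lower in M-cDC1 than in M-cDC2, with Nfkb1 at -2.41 and -2.65 and Relb at -2.29 and -2.94. Ccl3, Ccl4 and Ccl5, which NF-kB is known to induce, were lower in cDC1 like most of the list, and Ccl22, another such gene, was higher. Of the ligands with a kappaB match in their windows, Cxcl9 and Cxcl10 were higher in cDC1 and Ccl9 was lower. The part of the interferon and NF-kB lists in the values of the ligands was not tested.

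Between L and M few genes of these lists passed. Limma and limma-voom called 0 interferon-gamma and 0 type I interferon response genes in cDC1 and in cDC2; at an unadjusted p under 0.05, 2 of 21 interferon-gamma genes passed in each, and of 22 type I interferon genes 2 passed in cDC1 and 1 in cDC2. Il1b, an inflammatory cytokine, was the 1 NF-kB response gene of 18 that passed between L-cDC2 and M-cDC2, at 88.6 ± 1.76 FPKM in L-cDC2 and 158 ± 22.3 FPKM in M-cDC2 (SD, n = 3 each; -0.82, SE 0.185, limma adjusted p = 0.0387). Of 19 immediate early genes, 8 were lower in L-cDC1 than in L-cDC2 and 12 were lower in M-cDC1 than in M-cDC2, and Dusp2, a phosphatase induced on activation, was higher in L-cDC1 than in M-cDC1 (1.80, SE 0.327, limma adjusted p = 0.0322). Ccl3 and Ccl4 are themselves quickly induced genes, and the part of this list in their values was not tested. Of the 15 mature migratory genes, Serpinb6b was higher in L-cDC2 than in M-cDC2 (1.43, limma adjusted p = 0.0101) and 0 were called by limma or limma-voom between L-cDC1 and M-cDC1, where 4 had an unadjusted p under 0.05.

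For each ligand whose group means spanned at least 1 log2 unit, the genes with the most similar profile over the 12 libraries were found among 7175 genes, by the root mean square (RMS) difference of centred log2(FPKM + 1) values. These values describe likeness only, and all profiles share the same libraries. The added 1 FPKM shrinks the fold of genes near 0, so a like profile need not mean a like fold. Cxcl9 was most like Mpeg1 (RMS 0.194), which encodes a pore-forming protein of phagocytes, Cst3 (0.271), an abundant protease inhibitor of cDCs, and Tlr3 (0.350). Ccl5 was most like Npl (0.185), Stat4 (0.202) and Il2rg (0.214), and Ccl3 like Tlr7 (0.347), Acp5 (0.421) and Klra17 (0.436). Npl had means of 0.029 FPKM in L-cDC1 and 12.5 FPKM in L-cDC2, against 36.2 and 391 FPKM for Ccl5, so their folds differ widely. Ccl4 was most like Egr2 (0.220), Slc25a37 (0.309) and Nfkbid (0.314). Ccl9 was most like Clec7a (0.314), the beta-glucan receptor, Csf3r (0.321), the receptor of granulocyte growth factor, and Skint3 (0.356). Clec7a had 7.03, 5.34 and 8.31 FPKM in L-cDC2 libraries, against 31.3, 28.3 and 24.0 FPKM in M-cDC2 libraries. Ccl6 was most like Rab9 (0.322), Calhm6 (0.325) and Mcub (0.355), and Cxcl16 like Mcrip2 (0.229), Rab32 (0.241) and Olfr433 (0.263). Cxcl10 was most like Mrpl42 (0.206), Sowahc (0.256) and Rab11a (0.271), and Ccl22 like Cbr3 (0.436), Snx24 (0.467) and Cyb5r1 (0.482). Among the ligands themselves, the closest pairs were Ccl3 with Ccl5 (0.547) and Ccl22 with Cxcl16 (0.590), although Ccl3 and Ccl4 are the nearer neighbours on chromosome 11, 13.2 kb apart (RMS 1.05).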

How the data were processed

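RNA of sorted spleen cDCs was extracted with RNeasy micro columns and made into libraries with SMART-Seq HT and Nextera XT, which do not mark strand, per the labels' protocols. The authors deposited 1 table of FPKM values per gene, normalized by transcript length and library size. Per the submitters' processing notes the tools were STAR 2.7.9a and featureCounts 2.0.1, the trimmers cutadapt 3.7, Trimmomatic 0.39 and Trim Galore 0.6.7, and DESeq2 1.20.0, with no role or order stated. They name a human build although the gene symbols are mouse, and the table names none.

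All values were whole multiples of 1 read within a tolerance of 0.01 read, which gave the depth of each library. Genes at 1 FPKM or more in at least 3 of 12 libraries were kept (12434), log2(FPKM + 1) was fitted with 1 mean per group in limma 3.58.1 (R 4.3.3) with 8 residual degrees of freedom, and p-values were adjusted by Benjamini-Hochberg over all genes. With 3 libraries against 3, the smallest two-sided p an exact permutation test allows is 0.1. Alternatives were other pseudocounts (0.1 and 5), filters and scalings, no intensity trend, only the groups compared, the replicate number as a block, limma-voom on the recovered reads, and each library left out. The fit was tested on simulated data in which genes with few reads were left unchanged. That test does not cover changes of weakly expressed genes such as Ccl17. Floors of 3 reads cover counting error only. No replicate pair looked like 1 library deposited again (chi-square per gene 23.7 to 45.5, against counting error of amplified reads only).

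The ligands and gene lists were chosen with earlier results of these data known. All 10 ligands are named in every comparison, with the listed receptors except 1 that is not reported here, and for each list its counts and up to 4 genes with the smallest p. Genes alike needed a highest group mean of 5 FPKM or more. Sequences came from RefSeq (GRCm38.p6) through Python 3.11.15 and Biopython 1.88, and plots from matplotlib 3.10.9.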

Additional observations from a re-analysis of the deposited data

Results flagged for a closer look

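Ccl9 passed the interaction test, at 1.75 on the log2(FPKM + 1) scale (limma adjusted p = 0.0137). It held 11 reads in L-cDC1 and 23 in M-cDC1, and that scale understates changes of such weakly expressed genes. The call ended with a pseudocount of 0.1 (limma adjusted p = 0.449) and with limma-voom on the recovered reads (0.887, adjusted p = 0.871). At these read counts the test cannot decide whether Ccl9 differed unequally between L and M in cDC1 and cDC2. Further limits are given with the interaction in the report.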

How the results depend on the processing

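Of 50 differences over the 10 ligands and 5 comparisons, 20 were called. Of these, 16 kept their call and direction under every alternative run for their comparison, while 0 of the called turned direction. The libraries left out were those of the groups in each comparison, and the fit of only the groups compared was not run for the interaction. The number of ligands called was 8 to 9 for L-cDC1 against L-cDC2, 7 to 9 for M-cDC1 against M-cDC2, 2 to 4 for L-cDC2 against M-cDC2 and 0 throughout for L-cDC1 against M-cDC1. In the interaction 1 ligand was called; it was 0 with a pseudocount of 0.1 and with limma-voom, 2 with a filter of 5 FPKM and after quantile normalization, and 0 to 1 with a library left out. Over the whole table, 49 genes were called between L-cDC1 and M-cDC1 (14 to 102 over the alternatives), 227 between L-cDC2 and M-cDC2 (137 to 247) and 37 in the interaction (10 to 38). Of the uncalled differences, 9 turned direction, nearly all when 1 library was left out. Between L-cDC1 and M-cDC1, Cxcl9 was -0.00424 under median-of-ratios scaling and ran from -0.0965 (without M-cDC1 replicate 3) to 0.135 with a library left out, and Cxcl10 ran from -0.271 to 0.0181 (without M-cDC1 replicate 2). Between L-cDC2 and M-cDC2, the left-out range was -0.498 to 0.165 for Ccl3 and -0.148 to 0.774 for Ccl17, both turned without L-cDC2 replicate 2, and -0.156 to 0.535 for Ccl4 and -0.347 to 0.0732 for Ccl5, both turned without M-cDC2 replicate 2. Ccl17 between L-cDC1 and L-cDC2 ran from -0.101 (without L-cDC2 replicate 1) to 0.821. The interaction of Ccl4 was 0.00902 with limma-voom and ran from -0.319 to 0.371 with a library left out, and that of Cxcl10 from -0.0936 (without L-cDC2 replicate 1) to 0.584. The cause was not tested. The share of called genes that were higher in cDC1 moved with scaling, from 32.7% in L and 33.2% in M as deposited to 48.7% and 49% after median-of-ratios scaling and 52.6% and 53.4% after quantile normalization. Replicates share only a number: the deviations of same-numbered samples correlated at -0.00171 to 0.156, with 2 of 12 pairs over 0.1, and not every sample correlated best with its own number. With the replicate block, 2 ligands were called in the interaction (Ccl9 and Cxcl16), 4 between L-cDC2 and M-cDC2 (with Cxcl9, -0.88, adjusted p = 0.0407), 8 in each comparison of cDC1 with cDC2 and 0 between L-cDC1 and M-cDC1. Depth limits Ccl9 in cDC1 and Ccl17 in every group, where libraries held from 0 to 29 reads.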

Other observations

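In cDC2, the replicate 2 libraries had the lowest Ccl3 and Ccl4 of their group and also the lowest Egr2, an early growth response gene, with 11.1, 6.37 and 10.5 FPKM in L-cDC2 libraries and 9.54, 5.32 and 7.70 FPKM in M-cDC2 libraries. Egr2 was the gene most like Ccl4 over the 12 libraries, so this is a description with no test. The summed immediate early genes did not share that order, with 3222, 3769 and 3060 FPKM in L-cDC2 libraries and 3416, 3397 and 2915 FPKM in M-cDC2 libraries. Ccl5 went the other way in M-cDC2 replicate 2, which held the highest Ccl5 of all libraries at 576 FPKM.

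Between L-cDC1 and M-cDC1, where Ccl22 was not called, Ccr7 (0.62, limma adjusted p = 0.0629) and Fscn1 (0.73, adjusted p = 0.0865) of the mature migratory list were also higher in L-cDC1 without passing, and 7 of 18 NF-kB response genes, 6 higher and 1 (Nfkbiz) lower in L-cDC1, had an unadjusted p under 0.05, against 10.3% of all genes, with 0 called by limma or limma-voom.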
